A study of Mus musculus with 6 samples.

Results

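The Tie receptors and their angiopoietin ligands are described here in blood progenitors sorted on a Hes1 reporter. The family comprises 4 genes, Tek, Tie1, Angpt1 and Angpt2, out of 18194 genes measured, and they are read by 6 of 45101 probe sets. They were chosen by gene symbol, with the levels of Tek in the same contrast already known, and the probe set with the highest mean log2 intensity stood for its gene. The differences of these genes between the groups are therefore given as a description with no p-value. The arrays came from lineage-negative, cKit+, Sca1+ (LSK) bone marrow cells, the marrow fraction that holds blood stem cells and multipotent progenitors. There were 3 arrays of GFP-positive and 3 of GFP-negative cells. All donors were mice of 6 weeks carrying Hes1 GFP/WT, so cells of both groups hold 1 reporter allele, and Hes1 is a repressor that Notch signalling switches on. In each group replicate 1 was female and replicates 2 and 3 were male. The labels do not say whether animals were pooled or whether a number marks the same animal in both groups. GFP-positive replicate 1 stood apart in endothelial and stromal genes, and values without it stand beside the main results that it moves.

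Tek (also called Tie2) is the receptor tyrosine kinase that binds angiopoietins, on endothelium and on blood stem cells. Angpt1 activates Tek and is known in marrow as a signal that keeps stem cells quiet and attached to their niche, while Angpt2, released mainly by endothelium, can block or weakly activate the receptor depending on context. Tie1 is a related receptor with no angiopoietin bound directly, which joins Tek in complexes and adjusts its signal.

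Of the 4 members, only Tek and Tie1 had a promoter in the RefSeq table used here (GRCm38.p6), and both are shown. Each runs 5′ to 3′ on the gene's own strand, from 250 bases before the annotated start to 50 after it. The Tek promoter is at chr4:94739039-94739338 on the + strand and the Tie1 promoter at chr4:118489800-118490099 on the - strand. Capitals mark GGAA, the core bound by ETS factors, or its reverse complement TTCC.
Tek: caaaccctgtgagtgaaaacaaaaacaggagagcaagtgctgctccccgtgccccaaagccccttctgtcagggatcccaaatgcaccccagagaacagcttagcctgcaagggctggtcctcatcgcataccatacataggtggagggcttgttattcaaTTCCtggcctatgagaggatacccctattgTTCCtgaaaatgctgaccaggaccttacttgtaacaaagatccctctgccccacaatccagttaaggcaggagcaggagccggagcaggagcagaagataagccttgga
Tie1: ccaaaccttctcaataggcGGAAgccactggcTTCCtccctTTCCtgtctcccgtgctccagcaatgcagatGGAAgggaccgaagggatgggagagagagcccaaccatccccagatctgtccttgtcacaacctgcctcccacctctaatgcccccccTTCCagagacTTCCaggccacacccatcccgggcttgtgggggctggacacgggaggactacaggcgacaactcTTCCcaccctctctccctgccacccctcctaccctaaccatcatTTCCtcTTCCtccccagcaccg
The Tek window holds 2 ETS cores and the Tie1 window 9, where the median over all 32851 promoters of the table is 3 and 96.0% hold at least 1. GATAA, a motif of GATA factors, was searched on both strands. It has 1 match in the Tek window, starting at base 38 of the transcribed part, and 0 matches in the Tie1 window, against 25.4% of all promoters with a match. CANNTG, the E-box, has 2 matches in Tek and 1 in Tie1 (72.3% of promoters have one). TGGGAA, the core of the site of the Notch factor Rbpj, overlaps the ETS core. It has 0 matches in Tek and 1 in Tie1, in a 25.6% background. These matches describe the letters only.

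Tek was high in every GFP-positive array and near background in every GFP-negative one. Its probe set, 1418788_at, read 8.71, 7.67 and 7.04 (log2 intensity) in GFP-positive replicates 1, 2 and 3, against 5.40, 4.81 and 4.74 in GFP-negative replicates 1, 2 and 3. On the linear scale the deposited intensities were 418.3, 203.1 and 131.2 in GFP-positive arrays and 42.1, 28.0 and 26.7 in GFP-negative arrays. The groups do not overlap, and the lowest GFP-positive array lies 1.64 (log2) above the highest GFP-negative array. The means were 7.80 ± 0.84 in GFP-positive and 4.98 ± 0.36 in GFP-negative cells (SD, n = 3 each), a log2 difference of 2.82 ± 0.45 (SE), or 7.07-fold. The 95% interval of the difference, with no allowance for the choice of the gene, was 1.71 to 3.93.

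A level near background is a bound rather than a measured low level. On these arrays 4.69 was the highest log2 intensity of the Y-linked genes Uty, Kdm5d and Eif2s3y in females, and 5.59 the highest of Xist in males, 2 guides to the reading of an absent transcript. All 3 GFP-negative values of Tek lie between these guides, and all 3 GFP-positive values lie above both. Whether the size of the Tek difference is understated for that reason was not tested, since the guides come from probe sets of other genes. In a sorted population, fewer cells that express a gene and less RNA per cell cannot be told apart.

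Tie1 was higher in GFP-positive cells by a smaller amount with a tight spread. Probe set 1416238_at read 7.99, 8.60 and 8.02 (log2 intensity) in GFP-positive replicates 1, 2 and 3, against 7.31, 7.39 and 7.52 in the GFP-negative replicates. The groups do not overlap, with a gap of 0.46 between the lowest GFP-positive and the highest GFP-negative array. The group means were 8.20 ± 0.34 in GFP-positive and 7.41 ± 0.11 in GFP-negative cells (SD, n = 3 each). The log2 difference was 0.80 ± 0.21 (SE), 1.74-fold, with a 95% interval of 0.27 to 1.32. Unlike Tek, Tie1 lay above both background guides in all 6 arrays.

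Both receptors thus stood apart between the groups, and the ligands did not. All 3 GFP-positive arrays lay above all 3 GFP-negative arrays for 2 of the 4 members, where 5.89% of all genes did the same. Because the contrast was known when the members were chosen, nothing is read from that share. Across all genes limma called 0% of 18194 at the adjusted threshold of 0.05. The lowest adjusted p was 0.0956.

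**Figure D1:**
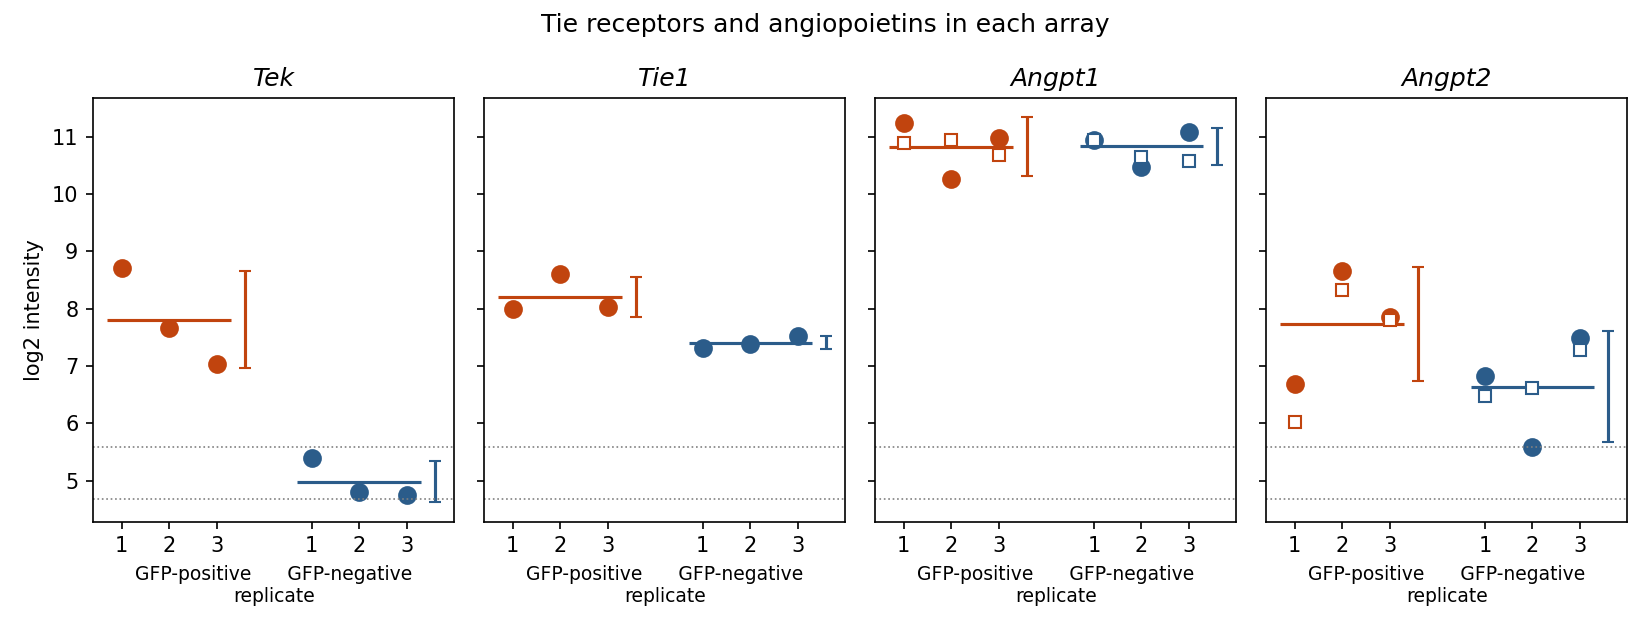
Log2 intensity (y axis) of Tek, Tie1, Angpt1 and Angpt2 in each GFP-positive (left, red) and GFP-negative (right, blue) replicate (x axis). Filled circles are the probe set that stands for the gene and open squares its other probe set. Horizontal lines are group means, bars are ± SD of 3 arrays and dotted lines the background guides at 4.69 and 5.59. Tek falls to the background range in GFP-negative cells, and Angpt1 has nearly the same mean in both groups.

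Angpt1, the ligand that activates Tek, had nearly the same mean in both groups. Probe set 1421441_at read 11.25, 10.26 and 10.98 (log2 intensity) in GFP-positive replicates 1, 2 and 3, against 10.95, 10.47 and 11.08 in GFP-negative replicates. Replicate 2 was lowest in both groups, and the ranges lie over each other. The means were 10.83 ± 0.51 in GFP-positive and 10.83 ± 0.32 in GFP-negative cells (SD, n = 3 each). The difference was -0.005 ± 0.31 (SE) with a 95% interval of -0.77 to 0.76, so a change of up to that size in either direction is not resolved by these arrays. The second probe set, 1439066_at, read 10.89, 10.93 and 10.69 in GFP-positive arrays, against 10.93, 10.64 and 10.58 in GFP-negative arrays, a difference of 0.12. It did not show the low replicate 2. Every Angpt1 reading, on either probe set, lay far above both background guides.

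Angpt2, the context-dependent ligand, varied widely among the arrays of each group. Probe set 1459636_at read 6.69, 8.66 and 7.85 (log2 intensity) in GFP-positive replicates 1, 2 and 3, against 6.82, 5.59 and 7.49 in GFP-negative replicates. GFP-positive replicate 1 lies below GFP-negative replicates 1 and 3, so the groups overlap. Means of 7.73 ± 0.99 in GFP-positive and 6.64 ± 0.96 in GFP-negative cells (SD, n = 3 each) gave a difference of 1.09 ± 0.66 (SE), with a 95% interval of -0.53 to 2.72. The second probe set, 1448831_at, read 6.02, 8.33 and 7.80 in GFP-positive arrays, against 6.48, 6.62 and 7.28 in GFP-negative arrays, a difference of 0.59. Both probe sets had their lowest reading among GFP-positive arrays in replicate 1. They disagreed on GFP-negative replicate 2, which was at 5.59 on the first and 6.62 on the second. The Angpt2 difference moved with single arrays: it was 0.57 without GFP-negative replicate 2, 0.63 without GFP-positive replicate 2 and 1.62 without GFP-positive replicate 1.

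GFP-positive replicate 1 stood apart in endothelial genes. Of 18 endothelial markers, among them the junction proteins Cdh5 and Cldn5 and the growth factor receptors Kdr and Flt4, 16 had their highest reading in that array. Their median, taken against the GFP-negative mean, was 3.60 (log2) in GFP-positive replicate 1, against -0.05 and 0.08 in GFP-positive replicates 2 and 3. The summed linear intensity of the 18 markers was 17566, 2698 and 3412 in GFP-positive replicates 1, 2 and 3, against 3658, 2996 and 3929 in the GFP-negative replicates. All 18 lay above the upper background guide of 5.59 in GFP-positive replicate 1, and between 8 and 11 did so in each of the other arrays. Cdh5, the cadherin of endothelial junctions, read 9.83, 4.91 and 4.65 in GFP-positive arrays, against 4.50, 5.01 and 4.29 in GFP-negative arrays. It was therefore in the background range outside that 1 array, and so was Mmrn2, an endothelial matrix protein, at 10.73, 4.67 and 4.73 in GFP-positive arrays, against 4.65, 4.56 and 4.59 in GFP-negative arrays. Robo4 and Egfl7, which blood stem cells also express, were at 7.75 or above in every array.

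The members did not follow these markers in the same way. Tek was highest in GFP-positive replicate 1, by 1.36 (log2) over the mean of replicates 2 and 3. The other GFP-positive readings of Tek, 7.67 in replicate 2 and 7.04 in replicate 3, came from arrays where the endothelial list as a whole was near the GFP-negative mean. Single markers of that list departed from their GFP-negative means in both directions. Sox18, an endothelial transcription factor, read 8.56 in GFP-positive replicate 3 but 5.38 in replicate 2. Its GFP-negative readings had a mean of 5.41 and reached 6.86. Cldn5 was at 7.69 in GFP-positive replicate 3 but 6.30 in replicate 2, while its GFP-negative readings averaged 6.00 and reached 6.95. Ecscr, an endothelial surface protein, read 7.30 in GFP-positive replicate 2 and 7.82 in replicate 3. Its GFP-negative mean was 6.48, but GFP-negative replicate 2 read 7.54. With GFP-positive replicate 1 left out, the differences were 1.56 for Sox18, 0.99 for Cldn5 and 1.08 for Ecscr. Flt4, Plvap, Stab2, Sox17, Ramp2, Aplnr, Robo4 and Egfl7 were then lower in GFP-positive cells, from -0.10 for Plvap to -0.52 for Ramp2. The list median was 0.03. Without GFP-positive replicate 1 the Tek difference was 2.37 (log2), and among the 4 male arrays it was 2.58. Among GFP-negative arrays too, Tek was highest in replicate 1, by 0.62.

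Tie1 went the other way, at -0.32 in GFP-positive replicate 1 relative to replicates 2 and 3. Its difference was 0.90 without that array and 0.85 among the males. Angpt2 was lower in GFP-positive replicate 1 than in replicates 2 and 3, at -1.57 relative to their mean on the first probe set and -2.04 on the second. The part of the endothelial signal in the values of GFP-positive replicate 1 was not tested.

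**Figure D2:**
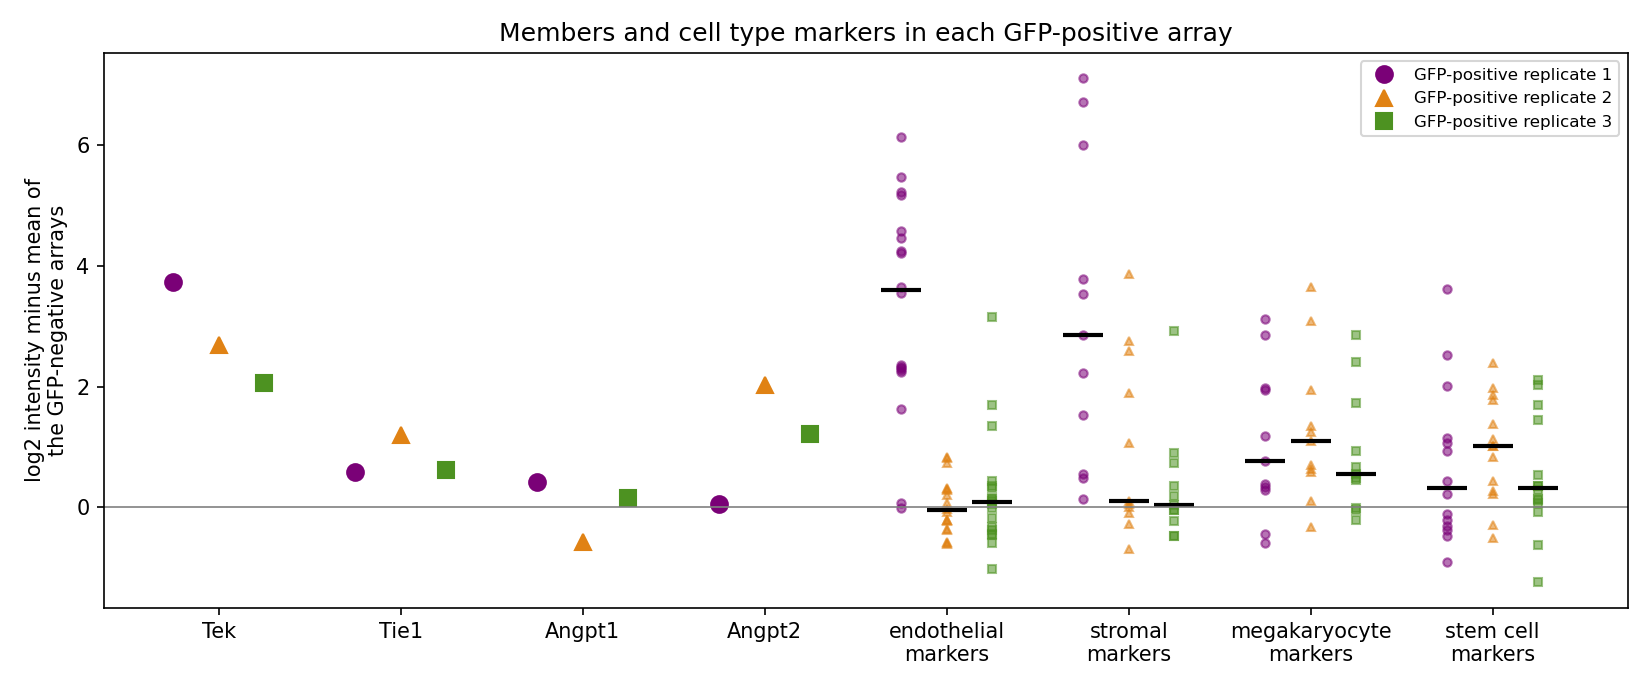
Log2 intensity minus the mean of the 3 GFP-negative arrays (y axis) in GFP-positive replicates 1, 2 and 3 for each member and for the markers of 4 cell types (x axis). Each symbol is 1 gene in 1 array and black lines are list medians. Endothelial markers reach a median of 3.60 in replicate 1 and lie near 0 in replicates 2 and 3, while Tek lies above 0 in all 3 arrays.

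Females and males were then set side by side, since replicate 1 of each group was female. The Tek difference was 3.31 (log2) in the female pair and 2.58 over the 4 male arrays. For Tie1 it was 0.68 in females and 0.85 in males, and for Angpt1 0.30 in females and -0.16 in males. Angpt2 differed in sign: -0.14 in the female pair, against 1.71 over the male arrays. The second Angpt2 probe set showed the same signs, at -0.46 in females and 1.12 in males.

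These contrasts rest on 1 female array per group, so no test of the members is drawn from them. Across all genes the group-by-sex interaction in limma, which takes the lone female arrays to vary like the males, passed for 0% of the 18194, and 1317 had an unadjusted p under 0.05. Sex and replicate number cannot be told apart in replicate 1. The endothelial signal was in 1 of the 2 female arrays, with a list median of 3.60 in GFP-positive replicate 1, against -0.10 in GFP-negative replicate 1.

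The other genes of the pathway centred near 0. Of 60 fixed genes 53 were measured. By limma 0 passed over all genes in either direction, while 1 was higher and 2 were lower by the unadjusted p at 0.05. Among all genes these shares were 3.33% higher and 3.38% lower. The median log2 difference of the 53 was -0.01, beside 0.008 over all genes.

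Relatives of the ligands showed no difference that passed by limma. Of the 6 angiopoietin and angiopoietin-like genes measured beside the members, 0 passed the test and 1 had a positive difference. Their median difference was -0.36, beside 0.008 over all genes. Angptl6 averaged 7.12 ± 0.67 in GFP-positive and 7.77 ± 0.25 in GFP-negative cells (log2 intensity, SD, n = 3 each), a difference of -0.65 that was -0.31 without GFP-positive replicate 1 and -0.99 without GFP-positive replicate 2. Angpt4, the remaining Tek ligand, read 6.23, 5.81 and 6.02 in GFP-positive arrays, against 6.25, 6.01 and 6.06 in GFP-negative arrays, just above the upper background guide in all 6.

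Partners of the receptors, and the proteases that act on them, ranged more widely. Of 10 genes 0 passed by limma. Mmp14, a membrane metalloprotease that can shed Tek, read 9.60, 6.86 and 7.78 (log2 intensity) in GFP-positive arrays, against 6.40, 6.01 and 6.52 in GFP-negative arrays. It was higher in every GFP-positive array and highest in replicate 1, and its log2 difference was 1.77 ± 0.68 (SE, limma adjusted p = 0.726). The difference was 1.01 without GFP-positive replicate 1, 1.06 among the male arrays and 0.86 over the mean of the gene's probe sets. Itgav, an integrin chain that angiopoietins can bind, averaged 8.08 ± 0.55 in GFP-positive and 8.98 ± 0.28 in GFP-negative cells (SD, n = 3 each, limma adjusted p = 0.667). That difference of -0.90 was -0.59 without GFP-positive replicate 1 and -0.006 over the mean of the Itgav probe sets, so the probe sets disagree. Ptprb, the endothelial phosphatase that removes phosphate from Tek, was at 7.85 in GFP-positive replicate 1 and 5.31 and 5.85 in GFP-positive replicates 2 and 3, against 5.57, 5.59 and 5.44 in GFP-negative arrays. It was thus above the guides by a wide margin in 1 array, the one with high endothelial markers.

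Signalling proteins below the receptors centred on 0. Of 22 measured, 0 had an unadjusted p under 0.05 in either direction, and their median difference was -0.002 (log2). The smallest p belonged to Nck1, an adaptor that links receptors to the cytoskeleton, at 9.01 ± 0.37 in GFP-positive and 8.42 ± 0.33 in GFP-negative cells (SD, n = 3 each, limma adjusted p = 0.792). Its difference of 0.59 was 0.19 over the mean of its probe sets. Pik3r2, a regulatory subunit of PI3 kinase, was at 7.26 ± 0.16 in GFP-positive and 6.80 ± 0.31 in GFP-negative cells (SD, n = 3 each, limma adjusted p = 0.802), a difference of 0.45 that was 0.29 without GFP-negative replicate 3. Nos3, the nitric oxide synthase of endothelium, was at 5.92, 5.59 and 5.13 in GFP-positive arrays, against 5.63, 5.25 and 5.73 in GFP-negative arrays, around the upper background guide.

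Transcription factors known to act on the promoters of this family, or in the same cells, showed no common direction. Of 15 measured, 0 passed by limma, and the median difference was -0.08 (log2). Elf1, an ETS factor of the Tek promoter, read 9.61, 9.83 and 10.11 in GFP-positive arrays, against 10.57, 10.47 and 11.10 in GFP-negative arrays. The GFP-positive arrays all lay below the GFP-negative ones, and the difference was -0.86 ± 0.24 (SE, limma adjusted p = 0.532). Etv6, another ETS factor, was at -0.36 ± 0.15 (SE, limma adjusted p = 0.755). Epas1, the hypoxia factor abundant in endothelium, read 10.89, 6.44 and 5.59 in GFP-positive arrays, against 5.28, 5.46 and 5.45 in GFP-negative arrays. Most of its difference of 2.24 ± 1.35 (SE) lies in GFP-positive replicate 1, since it was 0.62 without that array and 0.56 among the male arrays.

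**Figure D3:**
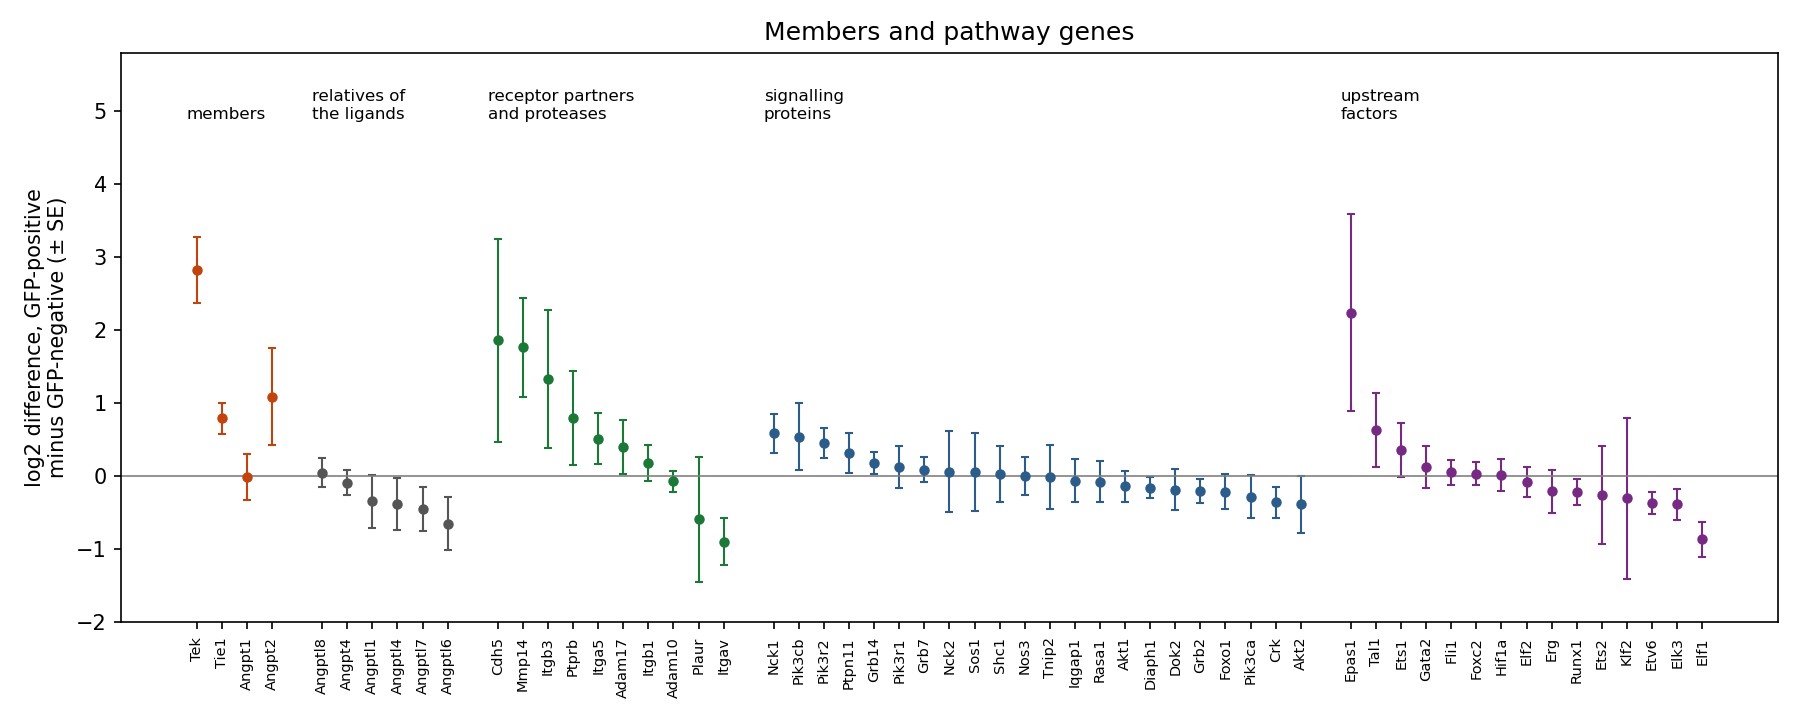
Log2 difference, GFP-positive minus GFP-negative (y axis), for the 4 members and 53 other pathway genes (x axis), sorted by size within each list. Points are differences and bars ± SE from limma over 3 arrays per group. Tek lies at 2.82, while the 22 signalling proteins lie around 0.

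Marker genes of stem cells and megakaryocytes, which also express genes of the family, had positive median differences. Of 14 stem cell markers measured, 0 passed by limma, and 6 were higher and 0 lower by the unadjusted p at 0.05, beside 3.33% and 3.38% of all genes. The median difference was 0.67 (log2). Without GFP-positive replicate 1 the median was 0.62 and 3 were higher at that level. Ctnnal1, a marker of long-term stem cells, was at 8.12 ± 0.73 in GFP-positive and 6.42 ± 0.07 in GFP-negative cells (SD, n = 3 each, limma adjusted p = 0.436). Its difference of 1.70 was 1.28 without GFP-positive replicate 1. Of 11 megakaryocyte markers, a lineage in which Angpt1 is also known, 0 passed and 5 were higher by the unadjusted p (3.33% of all genes). In 8 of the 11 every GFP-positive array lay above every GFP-negative one, as in 5.89% of all genes. Their median difference was 0.79, and 0.81 without GFP-positive replicate 1. Gp1bb, a subunit of a platelet adhesion receptor, had the smallest p of that list (limma adjusted p = 0.174).

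Stromal markers bear on Angpt1, which marrow stroma makes in quantity. Of 11 stromal markers measured, 0 passed by limma, and 10 were highest in GFP-positive replicate 1. Their summed linear intensity was 15986, 2432 and 1519 in GFP-positive replicates 1, 2 and 3, against 1212, 1930 and 1179 in GFP-negative replicates. Cxcl12, the stromal chemokine that holds stem cells in marrow, read 12.52, 9.27 and 8.33 (log2 intensity) in GFP-positive arrays, against 5.34, 5.52 and 5.38 in GFP-negative arrays. Its difference of 4.63 was 3.39 without GFP-positive replicate 1 and 2.48 over the mean of its probe sets (limma adjusted p = 0.454 with all arrays). Vcam1, an adhesion molecule of stroma and endothelium, read 9.50, 9.24 and 7.38 in GFP-positive arrays, against 6.46, 6.66 and 6.83 in GFP-negative arrays. The Vcam1 difference of 2.06 was 1.66 without GFP-positive replicate 1. Sparc, another stromal marker, read 12.32, 7.49 and 6.50 in GFP-positive arrays, against 5.49, 5.37 and 5.95 in GFP-negative arrays. Its difference of 3.17 was 1.39 without GFP-positive replicate 1 and 1.58 over the mean of its probe sets. In Cxcl12, Vcam1 and Sparc, 3 of the 11 markers, every GFP-positive array lay above every GFP-negative one, as in 5.89% of all genes. Adipoq read 9.50, 6.26 and 3.27 in GFP-positive arrays, against a GFP-negative mean of 3.50. The stromal list as a whole was near the GFP-negative mean in GFP-positive replicates 2 and 3. Its median against the GFP-negative mean was 2.85, 0.10 and 0.04 in GFP-positive replicates 1, 2 and 3. Lepr, the leptin receptor that defines a main stromal population, was at 5.79, 5.56 and 5.60 in GFP-positive arrays, against 5.62, 5.65 and 5.69 in GFP-negative arrays, at the upper background guide throughout. Angpt1 on its first probe set was highest of all arrays in GFP-positive replicate 1, at 11.25, but by only 0.17 over the next array. The part of stromal RNA in that reading was not tested.

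The sort itself was checked on the arrays. Kit, the receptor used to sort the cells, averaged 10.17 ± 0.43 in GFP-positive and 10.59 ± 0.12 in GFP-negative cells (log2 intensity, SD, n = 3 each), a difference of -0.43 that was -0.19 without GFP-positive replicate 1. Hes1, whose locus carries the reporter, averaged 7.43 ± 0.38 in GFP-positive and 6.89 ± 0.18 in GFP-negative cells (SD, n = 3 each, limma adjusted p = 0.78), a smaller difference than that of Tek. The groups overlap for Hes1, with GFP-positive replicate 2 at 7.09 and GFP-negative replicate 3 at 7.10. The transcript of the Sca1 marker was not analysed here. Of 5 lineage markers measured, Cd3e lay between 5.38 and 5.98 over the 6 arrays, Cd8a between 6.44 and 6.93, Itgam between 5.21 and 7.65 and Cd4 between 8.23 and 9.92. Ptprc, which encodes the pan-leukocyte protein CD45 as well as its B cell form, lay between 10.99 and 11.52. Cd4 and Ptprc were therefore well above the background guides in every array, and Cd3e was close to the upper one.

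The genes with the most similar profiles differed from member to member. Likeness was Pearson's r of log2 intensities over the 6 arrays, among the 5863 or 5864 other genes whose SD over the arrays was at least 0.5. All points share the 2-group structure and the same arrays, and with 6 points many genes reach a high r, so these are descriptions. For Tek, 82 genes reached an r of 0.9, led by the homeobox gene Hoxb5, known from long-term stem cells, at 0.994. Hoxb5 read 8.42, 7.20 and 6.92 in GFP-positive arrays, against 4.97, 4.77 and 4.71 in GFP-negative arrays, in the same order of arrays as Tek. The GFP-negative readings of both genes lie between the background guides, so their order among those arrays is not resolved. Papss2, which makes the sulfate donor of the cell, was at 0.986, the signalling inhibitor Tnip1 at 0.986, the stress protein Nupr1 at 0.982 and cyclin E1 (Ccne1) at 0.98.

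For Tie1, 77 genes reached that r. The closest were the chemokine Ccl5 at 0.989, the deubiquitinase Usp20 at 0.988, the splicing factor Prpf39 at 0.983, the erythropoietin receptor Epor at 0.982 and the transcription factor Tcf15 at 0.976. All 5 were highest in GFP-positive replicate 2, as Tie1 was. Epor read 7.27, 8.24 and 7.22 in GFP-positive arrays, against 6.44, 6.66 and 6.88 in GFP-negative arrays. None of the 5 genes closest to Tek was among the 5 closest to Tie1. Nothing is read from that, since Tek peaked in GFP-positive replicate 1 and Tie1 in GFP-positive replicate 2.

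The profile of Angpt1 was shared by genes low in replicate 2 of both groups. C920009B18Rik led at 0.992, followed by the exocyst subunit Exoc1 at 0.984, Myl10 at 0.982, the necroptosis effector Mlkl at 0.979 and the oxidative stress factor Nfe2l2 at 0.978, and 36 genes in all reached 0.9. Exoc1 read 9.65, 7.85 and 9.02 in GFP-positive arrays, against 9.36, 8.20 and 9.35 in GFP-negative arrays. Angpt1 had an SD of 0.38 over the arrays, so its profile is shallow, and its second probe set lacks the low replicate 2.

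For Angpt2 the closest were creatine kinase B (Ckb) and Clip3, both at 0.987, then 9030607L20Rik at 0.983, the sorting nexin Snx7 at 0.977 and Gemin2 at 0.966, of 53 genes at 0.9 or more. Ckb read 6.64, 8.15 and 7.46 in GFP-positive arrays, against 7.01, 6.17 and 7.31 in GFP-negative arrays. Its lowest array was GFP-negative replicate 2 and its highest GFP-positive replicate 2, as for Angpt2 on its first probe set. On the second Angpt2 probe set the lowest array was GFP-positive replicate 1, at 6.02.

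**Figure D4:**
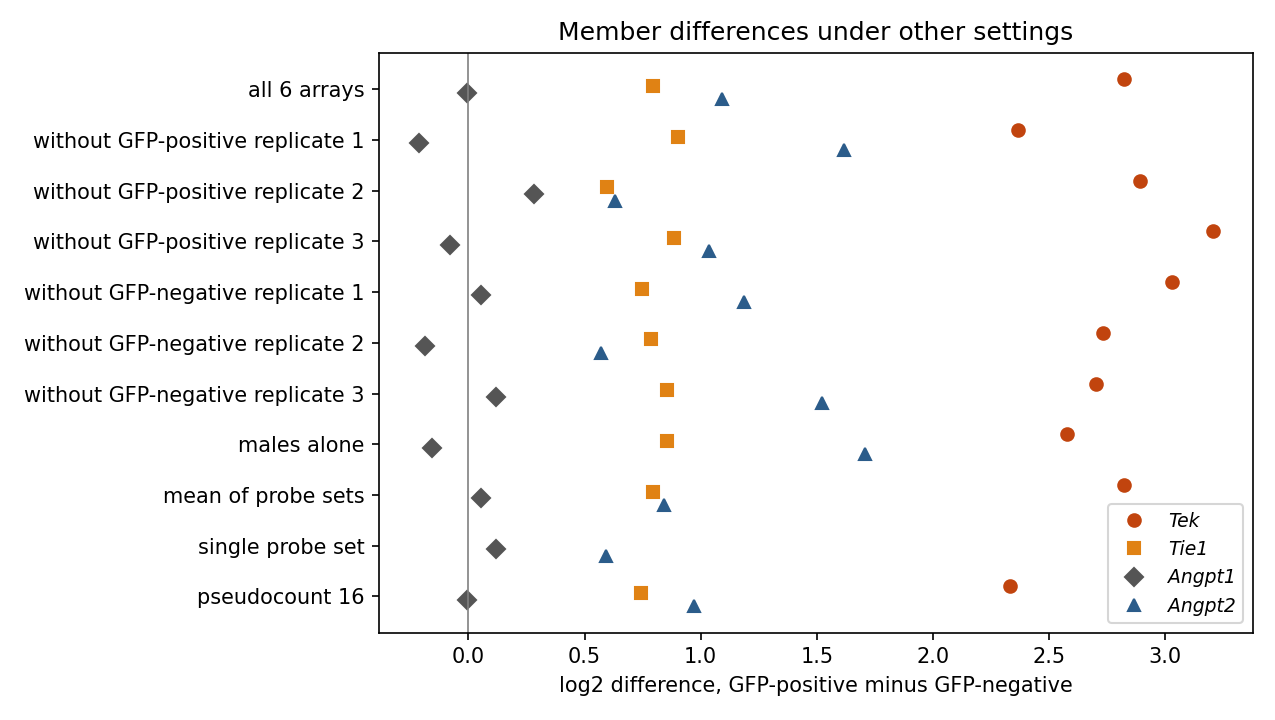
Log2 difference, GFP-positive minus GFP-negative (x axis), of each member under other settings (y axis). These are the omission of each array, the male arrays alone, the mean over probe sets, the second probe set and a pseudocount of 16. Tek stays between 2.33 and 3.20 and Tie1 between 0.60 and 0.90, Angpt1 lies on either side of 0 and Angpt2 spreads from 0.57 to 1.71.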

How the data were processed

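Gene expression was measured on 6 Affymetrix arrays, 3 of GFP-positive and 3 of GFP-negative LSK cells. Per the labels' protocols, RNA was amplified before labelling. The authors deposited linear intensities, 1 value for each probe set on each array. RMA was used, per the submitters' processing notes, with no version or setting given in the sources used here. It removes changes common to most genes and shrinks differences of dim ones. Array medians lay between 74 and 78.5, with a minimum of 4.12.

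The log2 of each intensity was taken with no pseudocount. The platform's annotation gave 1 symbol to 34958 probe sets, several to 932 and none to 9211. For genes with several probe sets the one with the highest mean stood for the gene, leaving 18194 genes. The groups were compared with limma 3.58.1 (lmFit, eBayes, R 4.3.3) without covariates, with Benjamini-Hochberg adjustment over all genes and a threshold of 0.05.

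The members and lists were chosen with earlier results of these data known. The rule for naming took, in each list, up to 2 genes of smallest p and up to 2 highest in GFP-positive replicate 1 relative to replicates 2 and 3, and for each member the 5 genes with the highest Pearson r. From the genes this rule gave, those bearing on the members are named, while Sox18, Kdr, Ptprb, Lepr, Robo4, Egfl7 and Cd3e were also chosen for their known roles after their values were seen. Plvap, Stab2, Sox17, Ramp2 and Aplnr were named after their values were seen, as endothelial markers lower without GFP-positive replicate 1. Hoxa9, Hlf and Esam were also named after their values were seen, to show the range of the stem cell list. Alternatives were other probe sets, renewed quantile or median normalisation, a pseudocount of 16, a sex covariate, the replicate number as a block, the male arrays alone, omission of genes under the 40th percentile of mean level, another variance prior, array weights and the omission of each array. Precision is limited by the number of arrays, and as the labels name no separate animals, the spread behind each p-value is that between samples and may be technical. Figures used matplotlib 3.10.9 (Python 3.11.15).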

Additional observations from a re-analysis of the deposited data

How the results depend on the processing

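Of the 53 pathway genes 0 passed the threshold in any of the 10 other settings or the 6 omissions of 1 array. Over all genes the count of 0 became 1 (Ermap) with the filter at the 40th percentile, and it ranged from 0 to 5 when single arrays were left out. The 5 came without GFP-positive replicate 3 and were Ermap and 4 B lineage genes, Jchain, Igk, Pou2af1 and a kappa variable gene. The cause was not tested. The member differences moved by less than 1 within-group SD in every setting run. That SD was 0.65 for Tek, 0.25 for Tie1, 0.43 for Angpt1 and 0.98 for Angpt2, so for Angpt2 even a fall from 1.09 to 0.57 lies within it. Some settings could not move the values. The sex covariate leaves each difference the same by construction, and Tek and Tie1 have 1 probe set each, so the mean of probe sets repeats their values. With single arrays left out they ranged from 2.37 to 3.20 for Tek, 0.60 to 0.90 for Tie1, -0.21 to 0.28 for Angpt1 and 0.57 to 1.62 for Angpt2. In the other settings the ranges were 2.33 to 2.82, 0.74 to 0.85, -0.16 to 0.12 and 0.59 to 1.71, so Angpt1 has no settled sign. Pathway genes higher at an unadjusted p under 0.05 numbered 2 with the mean of probe sets, sex as a covariate, the males alone or array weights, 0 with a pseudocount of 16 and 0 to 2 with single arrays left out (0 without GFP-positive replicate 3, 2 without GFP-positive replicate 1 or GFP-negative replicate 1 or 3). Those lower numbered 1 among the males, 3 with renewed quantile normalisation, a pseudocount of 16 or the other variance prior, and 1 to 3 with single arrays left out (1 without GFP-positive replicate 3 or GFP-negative replicate 2 or 3). Settings for the difference between females and males were added after the data were seen. With single male arrays left out that difference ranged from -0.46 to 0.11 for Tie1, while Tek stayed between 0.42 and 1.05 and Angpt2 between -2.80 and -0.89.

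Arrays of the same replicate number deviated together only weakly, with correlations of 0.12, 0.05 and 0.09 for numbers 1, 2 and 3, not all over 0.1. Each array correlated best with its own number, which is a hint from the data and not from the design. Both arrays of number 1 were female and the others male, so for that number sex and pairing cannot be told apart. With the replicate number as a block, 0 genes passed and 3 pathway genes were higher at an unadjusted p under 0.05. The member differences were the same by construction, and no call changed.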
